A study of Mus musculus with 6 samples.

Results

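The 10 genes described here are 8 small leucine-rich proteoglycans (Lum, Dcn, Bgn, Ogn, Fmod, Prelp, Omd and Aspn) and the anthrax toxin receptors Antxr1 and Antxr2. They were taken by name from the 50559 genes of the counts table, and all 10 were among the 20257 with enough counts to be tested. The members were chosen by name with the genotype difference in these libraries known, so the genotype values below describe these genes and are no independent test of them. The series holds 6 libraries of total RNA from mouse hypothalamus, 3 wild type and 3 labelled SRC1 KO, a knockout of the gene for SRC-1. SRC-1, encoded by Ncoa1, is a coactivator that nuclear receptors recruit to the genes they regulate. Library totals ran from 36613507 to 46755553 read pairs assigned to genes. Ncoa1 had 4630 to 5406 counts in the wild-type libraries and 1478 to 1766 in the knockout libraries, so each library matched its label. For both groups the age, sex, strain, extent of the deletion and dissection of the tissue were not given in the labels. The labels do not say that the libraries of a group came from separate animals, so the spread between them may be technical.

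Small leucine-rich proteoglycans are secreted proteins whose curved core of leucine-rich repeats binds collagen fibrils and sets how thick they grow. Many carry chondroitin, dermatan or keratan sulfate chains, and several also bind growth factors such as transforming growth factor beta. In the brain they are known above all from the fibroblasts of the meninges and of the larger vessels. Antxr1 and Antxr2 are membrane proteins with a von Willebrand factor A domain, which binds collagens and the protective antigen of anthrax toxin. Antxr2 is known for taking up collagen VI into cells.

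Most of the proteoglycan genes lie in clusters. By the table's own GRCm39 coordinates, Dcn (chr10:97315362-97354025) and Lum (chr10:97401363-97408565) are neighbours on the plus strand with 47.3 kb between them. Aspn (chr13:49697919-49721041), Omd (chr13:49735938-49746088) and Ogn (chr13:49761491-49777977) follow each other on the plus strand, inside the span of the minus-strand gene Cenpp. On chromosome 1, Prelp (chr1:133838042-133857820, minus) and Fmod (chr1:133964992-133976018, plus) are 107.2 kb apart. Bgn (chrX:72527207-72539542, plus), Antxr1 (chr6:87110835-87312757, minus) and Antxr2 (chr5:98032547-98178876, minus) have no member near them. Exons shared with another gene covered 11.7% of Aspn (Cenpp), 9.93% of Antxr2 (Gm34226 and Gm42759) and 0.057% of Antxr1. For the other 7 members the share was 0%.

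The windows at the gene start, from 250 bases before it to 50 after it, were taken from RefSeq on build GRCm38.p6 and are shown for 5 genes. Aspn, Omd and Ogn are shown because these neighbours had different values in the same libraries, and Prelp and Antxr2 because they passed the genotype threshold. The table matched 7 of the 10 members, and Lum, Dcn and Antxr1 had no entry. Placed by the coordinates of Fmod on both builds, the Prelp window lay inside the Prelp span given above. Its positions therefore refer to another start than that of the counted gene. Each sequence runs 5′ to 3′ on the gene's strand, and capitals mark the motifs found in it.
Aspn, chr13:49544193-49544492, plus: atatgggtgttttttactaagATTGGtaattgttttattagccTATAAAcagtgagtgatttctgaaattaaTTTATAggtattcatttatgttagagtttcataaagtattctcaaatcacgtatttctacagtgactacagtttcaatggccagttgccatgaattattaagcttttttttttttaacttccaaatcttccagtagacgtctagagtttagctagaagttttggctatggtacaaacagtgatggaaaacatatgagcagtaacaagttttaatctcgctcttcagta
Omd, chr13:49582212-49582511, plus: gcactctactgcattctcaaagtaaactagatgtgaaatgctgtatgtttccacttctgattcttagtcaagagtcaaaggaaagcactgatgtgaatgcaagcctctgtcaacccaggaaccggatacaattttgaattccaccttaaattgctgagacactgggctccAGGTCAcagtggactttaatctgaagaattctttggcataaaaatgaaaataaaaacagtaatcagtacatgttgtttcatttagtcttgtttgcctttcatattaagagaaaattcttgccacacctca
Ogn, chr13:49607765-49608064, plus: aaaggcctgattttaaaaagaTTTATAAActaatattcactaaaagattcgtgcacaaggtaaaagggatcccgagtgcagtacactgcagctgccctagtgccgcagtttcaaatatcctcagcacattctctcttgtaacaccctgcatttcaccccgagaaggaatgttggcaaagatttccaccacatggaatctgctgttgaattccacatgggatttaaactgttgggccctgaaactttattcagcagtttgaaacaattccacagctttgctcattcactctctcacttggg
Prelp, chr1:133921352-133921651, minus: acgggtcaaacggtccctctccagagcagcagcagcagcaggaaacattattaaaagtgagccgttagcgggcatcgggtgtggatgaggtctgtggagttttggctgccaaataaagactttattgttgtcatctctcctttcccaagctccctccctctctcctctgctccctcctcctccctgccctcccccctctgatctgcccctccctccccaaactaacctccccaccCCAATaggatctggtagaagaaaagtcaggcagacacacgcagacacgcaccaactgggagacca
Antxr2, chr5:98030968-98031267, minus: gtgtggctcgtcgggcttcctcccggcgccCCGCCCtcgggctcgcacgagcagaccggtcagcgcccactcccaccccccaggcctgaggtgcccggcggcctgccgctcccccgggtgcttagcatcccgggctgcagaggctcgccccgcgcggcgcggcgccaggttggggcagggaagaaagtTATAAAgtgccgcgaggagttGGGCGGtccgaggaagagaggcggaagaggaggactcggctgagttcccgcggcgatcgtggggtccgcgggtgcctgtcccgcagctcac

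The 6 motifs were searched on both strands in 32851 such windows. They were the TATA box (TATAAA, in 13.6% of all windows), the CCAAT box (CCAAT, 37.4%), the GC box (GGGCGG, 35.7%), the AP-1 site (TGANTCA, 7.81%), the nuclear receptor half-site (AGGTCA, 16.3%) and the glucocorticoid half-site (AGAACA, 19%). With the base before the gene start counted as -1, Omd held the nuclear receptor half-site at -80. That is 1 of the 7 members matched, where 16.3% of all windows held it. Bgn, whose window is not shown, held the glucocorticoid half-site at -241. Ogn held 2 overlapping TATA boxes at -229 and -227, and Aspn held TATA boxes at -207 and -178 and a CCAAT box at -229. Prelp held a CCAAT box at -15, and Antxr2 a TATA box at -62 and GC boxes at -220 and -41. The windows of the chromosome 13 genes were poor in G and C, at 31% for Aspn, 37.7% for Omd and 42.3% for Ogn against a median of 52.7%. Antxr2 had 73% and 35 CpG dinucleotides, where the median window had 7. A match describes the letters of the window and does not show binding.

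Levels between genes are compared as CPM per kb, that is, counts scaled to the effective library size (CPM, with edgeR's TMM factors) and divided by the exon length. In wild type Dcn was highest at 11.5 ± 3.63 CPM per kb (SD, n = 3), followed by Prelp at 9.10 ± 2.05 and Antxr1 at 8.67 ± 0.635. Bgn, Ogn and Fmod came next at 5.82 ± 2.45, 5.70 ± 4.89 and 5.55 ± 4.60 CPM per kb. Lum had 1.42 ± 0.561, Antxr2 0.722 ± 0.0311, Omd 0.567 ± 0.507 and Aspn 0.299 ± 0.0713 CPM per kb. Of these neighbours in rank, Lum and Antxr2 alone had ranges that did not overlap. In the knockout the order changed, with Antxr1 first at 5.34 ± 0.173 CPM per kb, above Dcn at 3.76 ± 0.725, and the ranges of the pair did not overlap. Omd was last in the knockout at 0.0613 ± 0.0143 CPM per kb, and ranked at the 2.74th percentile of tested genes.

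In the genotype comparison, 4 of the 10 members were called lower in the knockout and 0 higher. They were the collagen-binding receptors Antxr1 and Antxr2 and the proteoglycans Prelp and Lum, lower by 1.62-fold to 2.83-fold in mean CPM. Over all genes, 0.592% were called lower and 0.242% higher. Calls here mean a Benjamini-Hochberg adjusted p under 0.05 over all tested genes in edgeR's quasi-likelihood test. At an unadjusted p under 0.05, 8 members were lower and 0 higher, where 7.21% of all genes were lower. DESeq2 called 7 members lower (2.54% of all genes), limma-voom 3 (0.4%), or 5 once quality weights per library were added (1.31%), and each called 0 higher (1.51%, 0.109% and 0.666% of all genes). The groups did not overlap, with the knockout lower, in 7 of the 10 members, as in 9.03% of all tested genes. The log2 fold change was negative in 9 of the 10 members and in 48.9% of all genes, with a median of -1.45 over the members and 0.0042 over all genes. With wild-type 1, 2 or 3 left out, 0.261%, 0.379% and 0.752% of all genes were called lower, and with knockout 1, 2 or 3 left out 0.111%, 1.08% and 0.429%. The share was 0.252% with library totals alone, 0.396% with a stricter filter and 0.499% with the replicate number as a block. Since the members were listed with this comparison in view, no inference is drawn from these shares. In bulk tissue, fewer cells of a type and less RNA per cell cannot be told apart.

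**Figure D1:**
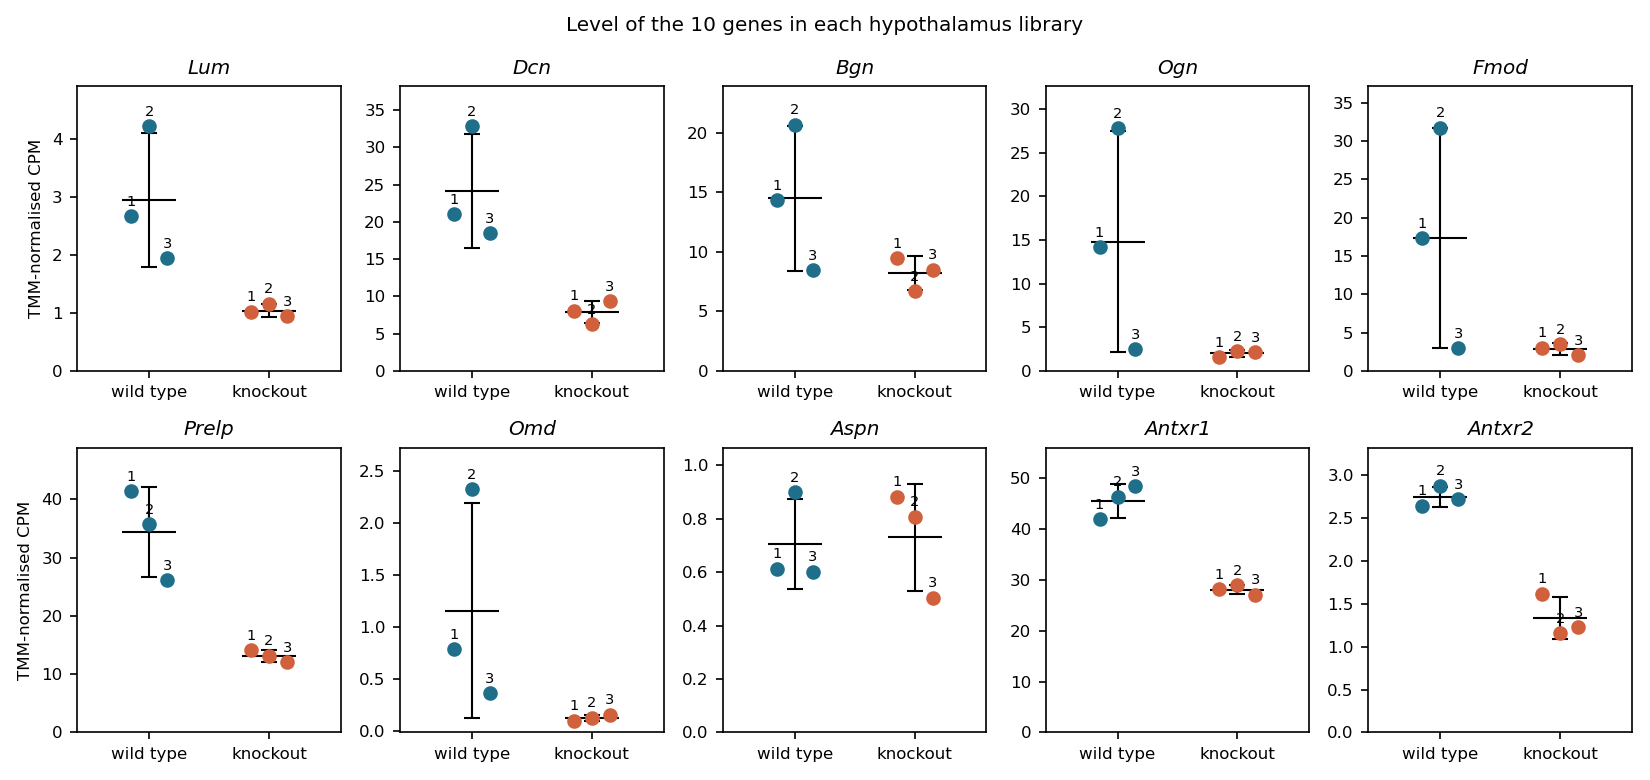
TMM-normalised CPM (vertical axis, linear, a scale of its own in each panel) of each of the 10 genes in the 3 wild-type libraries (blue) and the 3 knockout libraries (orange), with replicate numbers. Black bars give the mean and SD. Wild-type 2 is highest among wild type for Lum, Dcn, Bgn, Ogn, Fmod, Omd and Aspn, while the wild-type values of Antxr1 and Antxr2 lie close together.

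The anthrax receptors had the closest wild-type values of all members. Antxr1 stood at 42.0, 46.4 and 48.5 CPM in wild-type libraries 1 to 3 and at 28.2, 28.9 and 27.1 CPM in knockout libraries 1 to 3. The groups were far apart, with the lowest wild-type library 1.45 times the highest knockout library. Its log2 fold change was -0.70 ± 0.074 (SE; adjusted p 0.00584 in edgeR), and it passed in 6 of 6 fits that left out 1 library. Antxr2, the less abundant receptor, had 2.65, 2.88 and 2.72 CPM in wild type, against 1.62, 1.16 and 1.23 CPM in the knockout. It fell by 1.04 on the log2 scale (SE 0.20; adjusted p 0.0447 in edgeR), and again no wild-type library reached down to a knockout one. Antxr2 lies near the threshold: with 1 library left out the difference stayed between -1.20 and -0.95, but the adjusted p ran from 0.0673 to 0.108 and none of the 6 fits called it. It also missed when library totals alone set the scale (adjusted p 0.0638), under the stricter filter (0.055) and in limma-voom (0.0525). The wild-type CV, the SD as a share of the mean, was 7.33% for Antxr1 and 4.3% for Antxr2, against a median of 9.49% for all tested genes.

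Prelp and Lum were the proteoglycans called lower in edgeR. Both belong to the same class of the family, together with Fmod and Omd, and Prelp also binds heparan sulfate of basement membranes. Prelp had 41.4, 35.8 and 26.1 CPM in wild type, against 14.2, 13.2 and 12.01 CPM in the knockout. Its lowest wild-type library was 1.85 times its highest knockout library, and the log2 fold change was -1.39 ± 0.16 (adjusted p 0.0206 in edgeR). Leaving out wild-type 2 (adjusted p 0.0537), knockout 1 (0.0895) or knockout 3 (0.0609) ended the call. It held when wild-type 1 (0.0105), wild-type 3 (0.000351) or knockout 2 (0.0411) was left out. Lumican, the product of Lum, is best known from the collagen of the cornea. Lum had 2.67, 4.23 and 1.95 CPM in wild type, against 1.03, 1.16 and 0.942 CPM in the knockout, from 43 to 160 counts a library. The groups did not overlap, and the log2 fold change was -1.50 ± 0.28 (adjusted p 0.0458 in edgeR). Among the fits with 1 library left out Lum passed without wild-type 3 alone (adjusted p 0.0176). It missed in the other 5, where the adjusted p was 0.0972 (wild-type 1 left out), 0.0712 (wild-type 2), 0.187 (knockout 1), 0.0615 (knockout 2) and 0.0911 (knockout 3). Lum also missed when library totals alone set the scale (adjusted p 0.0811), under the stricter filter (0.0619) and in limma-voom (0.0912).

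Decorin and biglycan, the products of Dcn and Bgn, are close relatives that carry chondroitin or dermatan sulfate. Dcn had 21.1, 32.8 and 18.5 CPM in wild type, against 8.10, 6.30 and 9.34 CPM in the knockout. No value of either group lay within the other, yet Dcn did not pass (log2 fold change -1.60 ± 0.26, adjusted p 0.0617 in edgeR). It passed without wild-type 2 (adjusted p 0.0262), with DESeq2 (3.15e-12), with limma-voom (0.0414) and with its quality weights (0.0203). Bgn had 14.3, 20.7 and 8.45 CPM in wild type, against 9.44, 6.68 and 8.50 CPM in the knockout. Wild-type 3 lay among the knockout libraries, and the log2 fold change of -0.82 had a 95% interval from -1.68 to 0.04 (adjusted p 0.41).

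Ogn, Fmod and Omd had the widest differences and the widest spread. Ogn encodes osteoglycin, also called mimecan. It had 14.2, 27.8 and 2.46 CPM in wild type, against 1.57, 2.27 and 2.15 CPM in the knockout. Its wild-type libraries thus differed 11.3-fold among themselves, and wild-type 3 was 1.08 times the highest knockout library. Fibromodulin, the product of Fmod, binds the same collagen site as lumican. Fmod had 17.3, 31.7 and 2.98 CPM in wild type, against 3.03, 3.48 and 2.04 CPM in the knockout, so wild-type 3 lay within the knockout range. Omd, osteomodulin, had 0.785, 2.32 and 0.361 CPM in wild type, against 0.0953, 0.126 and 0.153 CPM in the knockout. The groups did not overlap, but the knockout values rest on 4, 5 and 7 counts. None of the 3 passed, with log2 fold changes of -2.89 ± 0.98 for Ogn, -2.61 ± 0.96 for Fmod and -3.16 ± 0.77 for Omd and adjusted p of 0.348, 0.384 and 0.137 in edgeR. Without wild-type 3 all 3 passed, with adjusted p of 0.0234, 0.0404 and 0.0251. DESeq2 called Ogn (adjusted p 0.0285) and Omd (0.000605) with all libraries, but not Fmod (0.059).

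Aspn, which encodes asporin and lies next to Omd, had overlapping values in the groups. It had 0.613, 0.898 and 0.602 CPM in wild type, against 0.882, 0.806 and 0.504 CPM in the knockout, from 23 to 37 counts a library. The highest and the lowest library were wild-type 2 and knockout 3. The log2 fold change was 0.05, with a 95% interval from -0.62 to 0.73 (adjusted p 0.967 in edgeR).

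**Figure D2:**
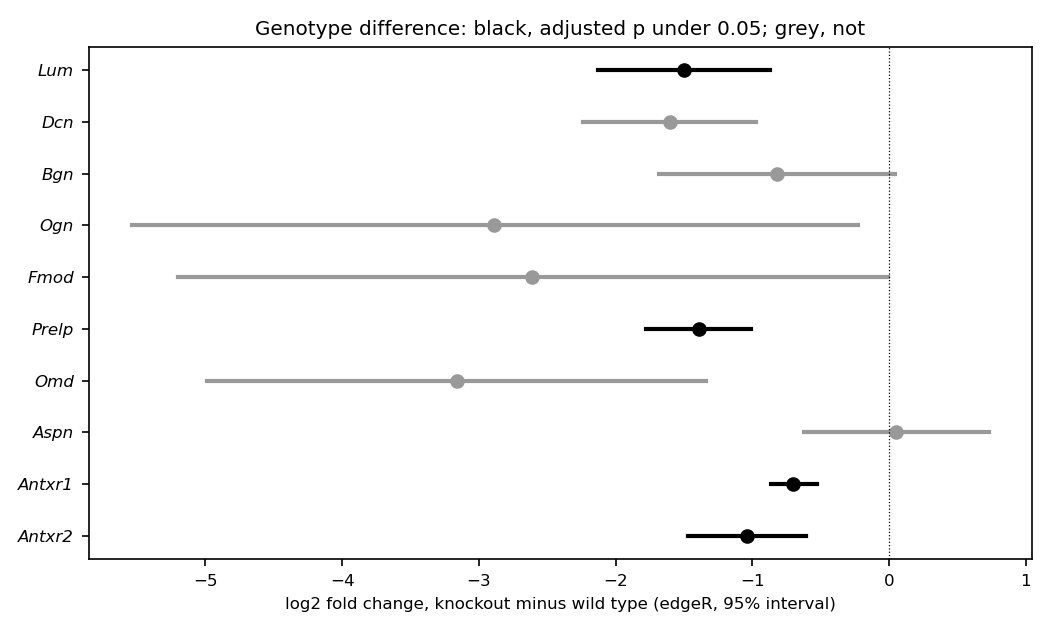
Log2 fold change of each gene, knockout minus wild type, with its 95% interval from edgeR (horizontal axis), genes on the vertical axis. Black marks an adjusted p under 0.05. The interval of Antxr1 is the shortest, from -0.86 to -0.53, and that of Ogn the longest, from -5.54 to -0.23.

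The spread inside the wild-type group set the members apart from each other. The wild-type CV was 89.3% for Omd, 85.8% for Ogn and 82.8% for Fmod, between 31.7% and 42.2% for Dcn, Lum and Bgn, and 22.5% for Prelp. For Ogn, Fmod and Omd it lay at or above the 99.4th percentile of all tested genes. In the knockout the CV of the 10 members ran from 3.23% for Antxr1 to 27.4% for Aspn, where the median gene had 8.92%. Wild-type 2 had the highest value of its group for 7 of the 8 proteoglycans, the exception being Prelp, whose highest was wild-type 1. Wild-type 3 had the lowest value of its group for all 8.

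Ogn and Fmod kept nearly the same ratio through that spread. Per kb of exon, Ogn was 0.983, 1.06 and 0.989 times Fmod in the wild-type libraries, while Ogn differed 11.3-fold and Fmod 10.6-fold in CPM between wild-type 2 and 3. In the knockout the ratio was 0.625, 0.784 and 1.27. Prelp did not follow them: it was 1.97, 0.932 and 7.22 times Fmod in wild type, against 3.86, 3.13 and 4.86 times in the knockout. Dcn against Lum was steadier, at 7.78, 7.66 and 9.35 in wild type, against 7.80, 5.36 and 9.77 in the knockout.

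The mix of proteoglycan RNA differed between libraries. The 8 genes summed to 39.65, 57.8 and 22.4 CPM per kb in wild type, against 13.9, 12.1 and 13.25 in the knockout, so the groups did not overlap. Ogn made up 13.7%, 18.5% and 4.23% of that sum in wild type, against 4.36%, 7.21% and 6.24% in the knockout. Fmod had shares of 14%, 17.6% and 4.27% in wild type, against 6.98%, 9.19% and 4.92% in the knockout. For both genes wild-type 3 had the lowest share of all 6 libraries. Bgn had a higher share in each knockout library (27.3%, 22.2% and 25.8%) than in any wild-type one (14.5%, 14.4% and 15.2%). The shares of Lum, from 3.25% to 4.61%, overlapped between the groups.

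**Figure D3:**
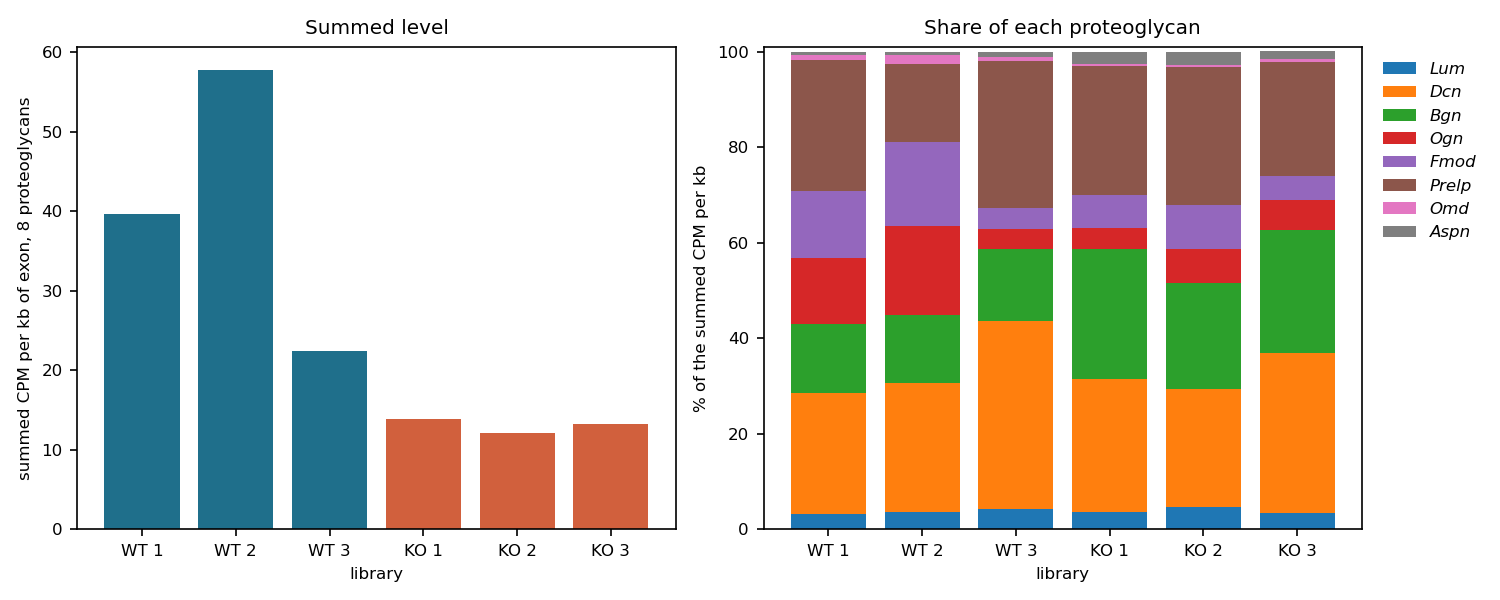
Left, summed CPM per kb of exon of the 8 proteoglycans in each library (WT, wild type; KO, SRC-1 knockout). Right, the percentage each gene contributes to that sum. The sum runs from 22.4 to 57.8 in wild type and from 12.1 to 13.9 in the knockout. The shares of Bgn and Aspn are larger in the 3 knockout libraries.

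Markers of meningeal fibroblasts were read in the same libraries, since these cells are a known source of the proteoglycans and lie at the edge of the tissue. The list had 37 tested genes, none of them a member, and 36 were negative, with a median log2 fold change of -0.86. None passed in edgeR, 8 had an unadjusted p under 0.05, and 8 were called lower by DESeq2 and 0 by limma-voom with or without quality weights. Without wild-type 3, edgeR called 7. The genes with the lowest p were Pi16 (-0.53 ± 0.12, adjusted p 0.0837) and Islr (-1.74 ± 0.49, adjusted p 0.238). The summed level of the list was 414, 702.7 and 226.5 CPM in wild type, against 227.3, 249.9 and 224 CPM in the knockout, and no marker was at 0 in all libraries. Wild-type 2 was thus highest and wild-type 3 stood at the knockout level. The part of these cells in the proteoglycan differences was not tested.

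In wild-type 3 the summed markers lay within the knockout range, and the median marker was at 0.919 times its knockout mean. Single markers were not uniform: they ran from 0.467 times for Aldh1a2 and 0.496 for Slc22a8 to 1.54 for Islr and 1.6 for Mgp. In the same library, relative to their own knockout means, Omd stood at 2.89 times (from 15 counts), Dcn at 2.34, Antxr2 at 2.04, Prelp at 1.99, Lum at 1.87 and Antxr1 at 1.73. Ogn was at 1.23 times, Fmod at 1.05, Bgn at 1.03 and Aspn at 0.823. This library was singled out after its values were seen, and the members were listed with their lower knockout values known. These are therefore values of 1 library, with no test of the members against the markers.

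**Figure D4:**
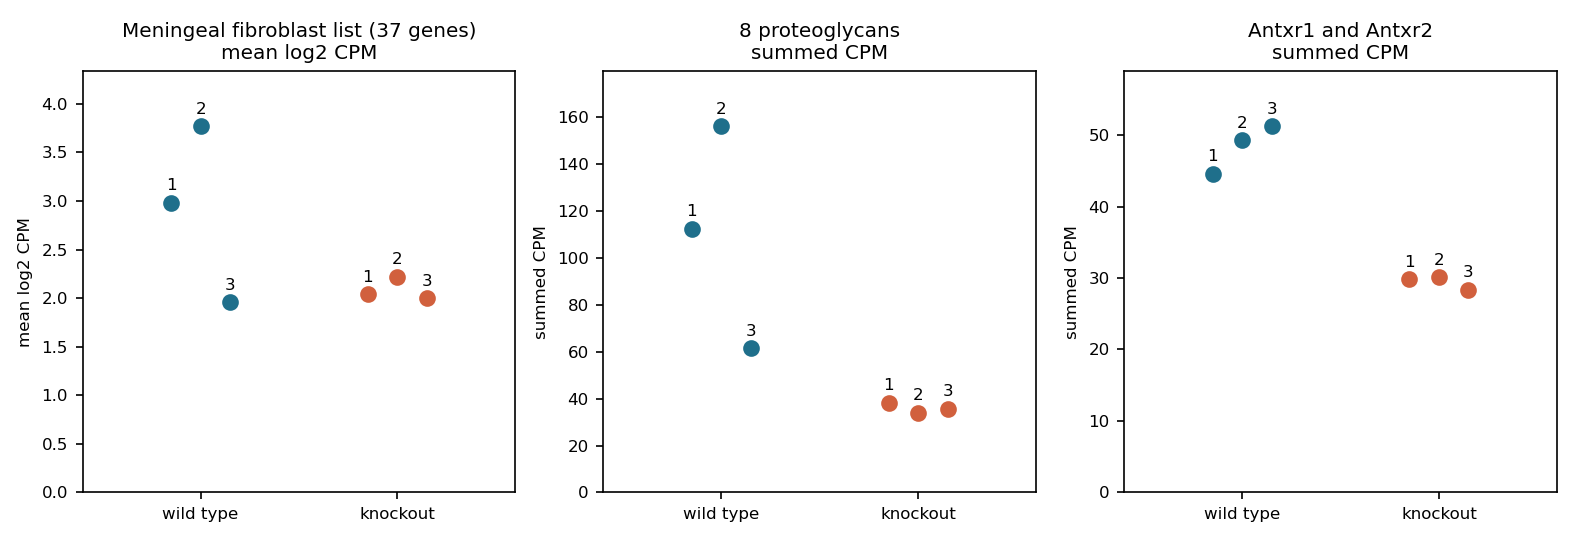
Mean log2 CPM of the 37 meningeal fibroblast markers, summed CPM of the 8 proteoglycans and summed CPM of Antxr1 and Antxr2 (vertical axes from 0) in the wild-type (blue) and knockout (orange) libraries, with replicate numbers. Wild-type 3 lies slightly below the knockout libraries for the markers (mean log2 CPM 1.96 against 2.00 to 2.22). It lies above them for the proteoglycans (61.4 against 34 to 38.3 CPM) and is the highest library for the receptors (51.2 against 28.4 to 30.1 CPM).

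Other marker lists were read for the same reason. Ependymal and tanycyte genes were also lower in the knockout, but did not follow the proteoglycans within wild type. Their summed level was 300.4, 304.1 and 341.9 CPM in wild type, highest in wild-type 3, against 125.9, 145.2 and 132 CPM in the knockout. Of 18 genes 12 were called lower, led by Gpr50, a receptor of tanycytes (-1.51 ± 0.15, adjusted p 0.00738 in edgeR). All 18 were lower at an unadjusted p under 0.05 in edgeR, with groups that did not overlap. The count of 12 dropped to 6 when wild-type 2 or knockout 3 was left out, and to 4 when knockout 1 was. It was 7 when library totals alone set the scale, 15 by DESeq2, 10 by limma-voom and 14 once quality weights were added. Border macrophage genes had a median of -0.92 over 7 tested genes, and summed to 10.4 to 22.95 CPM in wild type and 10.7 to 13.8 CPM in the knockout. Vessel lists did not lie lower: the median was 0.18 over 16 endothelial genes and -0.02 over 13 genes of pericytes and smooth muscle. In these 3 lists no gene passed in edgeR, with 2, 4 and 2 genes at an unadjusted p under 0.05, and of the other tools DESeq2 alone called any, 1 mural gene that was higher. Oligodendrocyte genes summed to 4307 to 5514 CPM in wild type, against 6995 to 9326 CPM in the knockout. Of the 12, 6 were called higher, led by Opalin (1.00 ± 0.12, adjusted p 0.0115 in edgeR). That count of 6 dropped to 1 when wild-type 1 or knockout 1 was left out, to 2 for wild-type 3 and to 3 for knockout 2. It was 1 when library totals alone set the scale, under the stricter filter and by limma-voom, but 12 by DESeq2 and 11 once quality weights were added. The remaining medians were 0.13 for neurons, -0.05 for astrocytes, 0.09 for microglia, 0.38 for blood cells, -0.52 for choroid plexus and -1.63 for pituitary, over 12, 12, 12, 7, 13 and 8 tested genes. In the last pair of lists 1 gene each passed, the choroid plexus gene Enpp2 (higher) and the pituitary gene Pitx1 (lower). No choroid plexus gene was called higher when wild-type 1, wild-type 3, knockout 1 or knockout 2 was left out, when library totals alone set the scale, under the stricter filter or by limma-voom, and 1 was by DESeq2 and once quality weights were added. Choroid plexus genes called lower numbered 0 as reported, with 4 at an unadjusted p under 0.05, but 1 without wild-type 3, 3 by DESeq2, 0 by limma-voom and 2 once quality weights were added. Pituitary genes called lower numbered 2 when wild-type 3 or knockout 2 was left out, 0 under the stricter filter and 3 by DESeq2 and by limma-voom with or without weights. No list had a marker at 0 in all libraries. The part of any of these cells in the members' differences was not tested.

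The rest of the proteoglycan family had smaller differences at the median. Of 10 further genes, 8 were tested, and 1 of them was called lower and 0 higher. That gene was Tsku, tsukushi, a secreted member of the family that binds Wnt and transforming growth factor signals. It fell from 4.92 ± 0.540 to 2.17 ± 0.152 CPM (SD, n = 3 each; log2 fold change -1.18 ± 0.16, adjusted p 0.0121 in edgeR), and missed without knockout 1 (adjusted p 0.0745). Podn, podocan, had 1.71 ± 1.36 and 0.743 ± 0.123 CPM and did not pass (adjusted p 0.496). The median over the 8 was -0.06. Kera, keratocan, had 0 counts in all 6 libraries and Epyc, epiphycan, 1 to 11, although both lie in the cluster of Lum and Dcn.

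Some neighbours within a cluster had unlike values, which were not tested against each other. On chromosome 10 the neighbours Dcn and Lum were alike, with log2 fold changes of -1.60 ± 0.26 and -1.50 ± 0.28. On chromosome 13, Ecm2, which lies 11.7 kb from Aspn, had a log2 fold change of -0.20 ± 0.19 and Cenpp, which spans the members there, of -0.33 ± 0.24. With Aspn at 0.05, the neighbours Omd and Ogn at -3.16 and -2.89 stood apart in size within the same cluster, though none of these passed. On chromosome 1, Optc, 0.7 kb from Prelp, had 93 to 154 counts in wild type, against 123 to 151 in the knockout, with a log2 fold change of 0.00 ± 0.19. Btg2, the next tested gene beyond Fmod, had -0.75 ± 0.14 (adjusted p 0.053 in edgeR). These neighbours were named for their position after their values were seen.

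**Figure D5:**
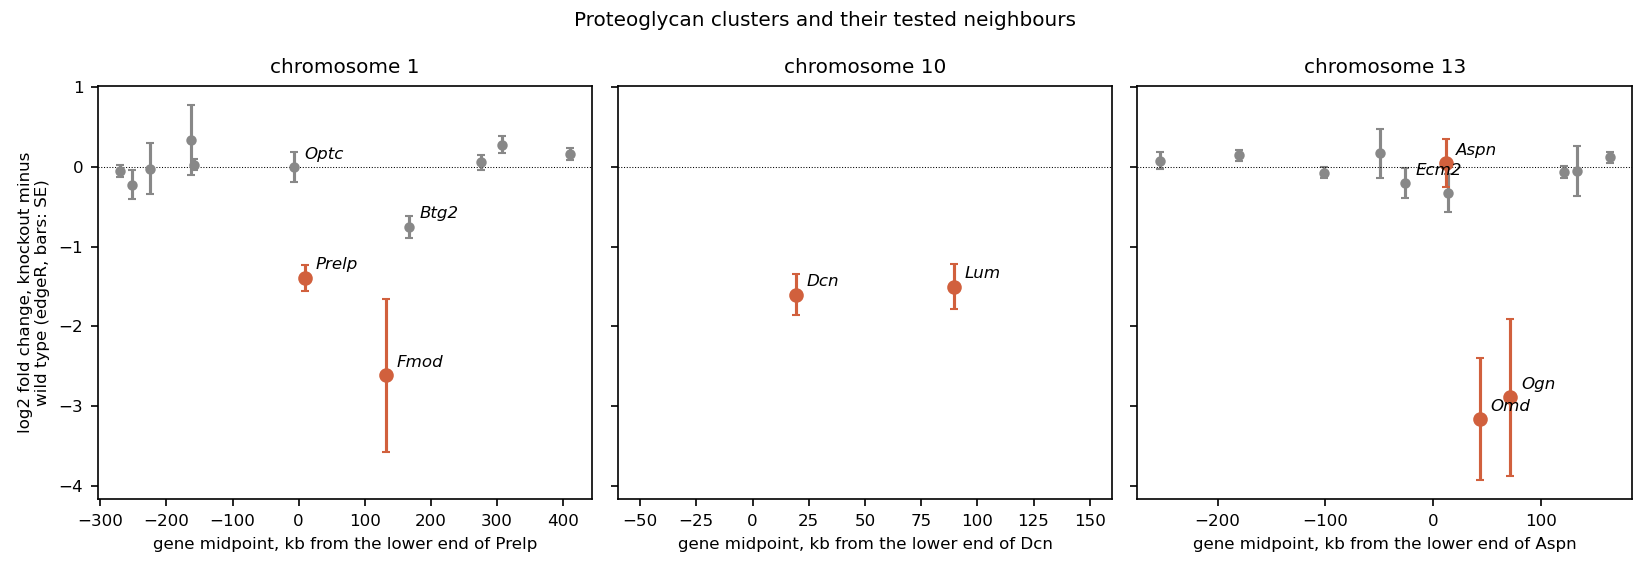
Log2 fold change with SE (vertical axis) of the members (orange) and of all other tested genes (grey) from 250 kb before to 250 kb after each cluster, against distance in kb from the lower end of Prelp, Dcn or Aspn. The chromosome 10 window holds no other tested gene. Optc lies at 0.00 beside Prelp at -1.39. Ecm2 and Aspn, next to each other, lie at -0.20 and 0.05, and Omd and Ogn beyond them at -3.16 and -2.89.

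Genes that act on the proteoglycans or bind them gave no call in edgeR with the default filter and all libraries kept. Of 30 tested genes for making the sugar chains none passed in edgeR, and the median was -0.05; 3 had an unadjusted p under 0.05, led by Pxylp1, the phosphatase of the linker xylose (-0.30 ± 0.082, adjusted p 0.128), and Chsy3, a chondroitin synthase (0.28 ± 0.12, adjusted p 0.336). Neither DESeq2 nor limma-voom called any of them. Of 15 genes for processing or cleaving the proteoglycans none passed either, with 3 at an unadjusted p under 0.05. Adamts4, a protease that cuts proteoglycans, had 30.2 ± 3.46 CPM in wild type, against 53.3 ± 10.6 CPM in the knockout (log2 fold change 0.82 ± 0.15, adjusted p 0.0572). It was the sole gene of the 15 that DESeq2 and limma-voom with quality weights called, and limma-voom without weights called 0. In edgeR it passed when knockout 3 was left out, and Htra1 passed, lower, when wild-type 1 was. Unfiltered, edgeR called 1 gene of this list higher. Timp3, an inhibitor of such proteases, had -0.25 ± 0.087 (adjusted p 0.238).

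Of 23 growth factors, receptors and matrix proteins known to bind these proteoglycans none passed in edgeR, with 6 at an unadjusted p under 0.05. DESeq2 called 2 lower, and limma-voom called 0 with or without weights. Leaving out wild-type 2 gave 1 call in edgeR and leaving out wild-type 3 gave 2, all lower. Unfiltered, edgeR called 1 gene of this list lower and 1 higher. Tgfbr3, betaglycan, had -0.49 ± 0.12 (adjusted p 0.0857) and the receptor kinase Erbb4 0.28 ± 0.083 (adjusted p 0.169). The widest falls were those of Ccn2 (-1.58 ± 0.42, adjusted p 0.191 in edgeR) and Fn1, fibronectin (-1.06 ± 0.40, adjusted p 0.387). Both were named for their size after their values were seen. The 17 collagens of the list had a median of -0.35. None passed in edgeR, 3 had an unadjusted p under 0.05, and DESeq2 called 1 and limma-voom 0 with or without weights. Of the 17, 5 are also among the meningeal markers, Col3a1 included. Without knockout 2, edgeR called 1. Col3a1 led with 5.02 ± 3.03 CPM in wild type, against 2.01 ± 0.542 CPM in the knockout (log2 fold change -1.32 ± 0.50), followed by Col5a2 (-0.59 ± 0.23). The collagen VI chains, ligands of the anthrax receptors, ranged from -1.37 ± 0.51 for Col6a5 to 0.75 ± 0.53 for Col6a6, and were singled out after their values were seen. Of 13 genes that work with the receptors (the Wnt coreceptors Lrp5 and Lrp6, proteases that activate the toxin, and adaptors to the cytoskeleton) none passed in edgeR, DESeq2 or limma-voom. In that group 1 gene had an unadjusted p under 0.05, Lrp5 (-0.30 ± 0.10, adjusted p 0.221), and Pcsk5 came next (0.25 ± 0.12, adjusted p 0.428). Antxrl, the third gene of the receptor family, had 1 count in all libraries together.

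Likeness to the members was measured over the 6 libraries as Pearson's r with the mean of the members' standardised log2 CPM, among 15800 genes of at least 1 CPM. These values describe 6 points that share the group difference and the high wild-type 2, so no p is given. The 8 genes most like the members were Mrc2, Lyz2, Ripk1, Plscr2, Junb, Cavin1, Yap1 and Vstm4, with r from 0.996 to 0.982. Mrc2, a receptor that takes up collagen, was closest to the mean and to Lum alone. It had 11.7, 16.3 and 9.60 CPM in wild type, against 6.93, 6.96 and 6.38 CPM in the knockout. Among the members r with their own mean was 0.990 for Lum, 0.972 for Omd, between 0.851 and 0.945 for the other 7 apart from Aspn, and 0.280 for Aspn.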

How the data were processed

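Total RNA of 6 hypothalamus libraries was sequenced, 3 per genotype. The authors deposited raw counts of read pairs per gene, made with featureCounts over RefSeq exons of mm39 (GRCm39) with no strand, multi-mapping or multi-gene option, per the file headers. Reads counted this way leave out those that map to several places and those that match exons of several genes alike, on either strand. Levels per kb of Aspn and Antxr2, which share exons with other genes, may therefore be understated. STAR 2.7.10a aligned the reads, per the submitters' processing notes. Exon lengths come from the same table, in bases, per the file headers. Columns were matched to samples by library code, and 0 columns of values were unused. Counts were fitted with edgeR 4.0.16 (TMM, default filter with a minimum count of 10, robust quasi-likelihood F-test, Benjamini-Hochberg over all genes, R 4.3.3). DESeq2 1.42.0 and limma 3.58.1 served as alternatives, with other scalings and filters, a replicate block and each library left out. Standard errors were derived from the F statistic and the estimate. With 3 against 3, exact permutation of a single value cannot go below a p of 0.1, so none was run. The members, the gene lists and the rule for naming genes (all members, up to 4 called genes or the 2 with the lowest p of a list for the proteoglycan, pathway and meningeal lists, and the closest patterns) were chosen with earlier results of these data known. The other marker lists are given by counts and levels.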

Additional observations from a re-analysis of the deposited data

How the results depend on the processing

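The number of members called was 4 as reported, and fell to 2 both when library totals alone set the scale and under the stricter filter (at least 1 CPM in 3 libraries). DESeq2 called 7, and the count was between 1 and 6 with 1 library left out, the lowest without knockout 1 or 3 and the highest without wild-type 3. The count over all genes was 169 as reported, 66 when library totals alone set the scale, 966 unfiltered, 84 under the stricter filter, 821 by DESeq2, 103 by limma-voom, 401 once quality weights were added, and between 36 (without knockout 1) and 260 (without knockout 2) with 1 library left out. The stricter filter left out Omd and Aspn. No member was called higher in any of these fits. Aspn changed sign in 4 fits that left out 1 library (-0.04 for wild-type 1, -0.05 for wild-type 3, -0.11 for knockout 1 and -0.02 for knockout 2; range -0.11 to 0.27) and never passed. The other 9 members kept their direction in every fit that tested them. The causes were not tested. With the replicate block 155 genes and 3 members were called. In that fit Antxr2 missed with an adjusted p of 0.0665. It called 7 ependymal and tanycyte genes lower, 3 oligodendrocyte genes higher, 2 pituitary genes lower, and of the choroid plexus genes 1 lower and 0 higher. The labels do not say what a shared replicate number means, and same-numbered libraries deviated together with correlations of -0.206, 0.351 and 0.224, so the numbers were not taken to pair them. Depth limits Omd (4 to 88 counts) and Aspn (23 to 37 counts) most.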
